A study of Mus musculus with 8 samples.

Results

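The genes described here copy chromatin through cell division or write and keep its methyl marks: Uhrf1, Dnmt1, Dnmt3a, Dnmt3b, Chaf1a, Chaf1b, Asf1b, Hells, Ezh2 and Suz12. They were chosen by name, and each was read from the row of the array table whose annotation gives that symbol alone. All 10 were found, each on 1 row, among 19938 measured genes. The RNA was from primary mammary tumors under 1.0 cm in diameter, which arose in MMTV-Neu mice of the FvB strain, and was hybridised to 8 Affymetrix Mouse Gene 1.0 ST arrays. Sorting by flow cytometry gave a fraction named TIC, for tumor-initiating cells (4 arrays), and a fraction labelled CD24-, after the surface protein CD24 (4 arrays). Both fractions came from the same tumors (N251, N260, N283 and a 1:1 mix of N222 and N229), so that 5 tumors gave 4 pairs. All mice carried the transgene, which the MMTV promoter drives mainly in mammary epithelium, and no tumor-free tissue is among the samples. Neither the age of the mice nor the markers behind the TIC gate were stated. Tumor names follow the sample titles, because the growth protocol writes N250 and N261 for N251 and N260.

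When a cell copies its DNA, nucleosomes are taken apart and rebuilt behind the fork, and the methyl marks on cytosine are present on the old strand alone. Asf1b and the chromatin assembly factor, which includes Chaf1a and Chaf1b, hand new histones to the DNA. Uhrf1 recognises hemimethylated sites and brings in Dnmt1 to restore the mark. Hells, a helicase-like remodeller, opens packed chromatin to the methylation machinery. Dnmt3a and Dnmt3b place methyl groups on sites that had none, and Ezh2 and Suz12 are the catalytic and a core subunit of Polycomb repressive complex 2, which methylates histone H3. Many of these genes are known to be transcribed with the cell cycle and are used as markers of dividing cells.

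Levels are the authors' log2 intensities, on which 1 unit is a doubling, and differences are TIC minus CD24- on that scale. Array medians ran from 7.03 to 7.18 and lower quartiles from 5.82 to 5.94. Correlations between arrays ran from 0.929 to 0.991. The CD24- arrays carried more leukocyte transcript than the TIC arrays, as given below. Cd24a, the gene of CD24, was at 12.26 (N251), 12.06 (N260), 12.50 (N283) and 12.47 (pool) in the TIC arrays, against 10.53, 11.01, 12.12 and 11.20 in the CD24- arrays. Its transcript was thus measured well above the array medians in the fraction labelled CD24-, and least apart in N283. The difference of 1.11 was not called without the block (adjusted p = 0.148) or with it (0.0691), but was with the tumor as a random block (0.0293). Arrays of sorted cells cannot tell fewer cells of a type from less RNA per cell.

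Uhrf1, Chaf1b and Hells rose in the TIC fraction when each tumor was compared with itself, Uhrf1 and Chaf1b by about 2-fold. Calls are those of limma over all genes with a Benjamini-Hochberg adjusted p below 0.05. With the arrays treated as independent, 0 of the 10 genes were called in either direction, where 0.0502% of all genes were called higher and 0.742% lower. Before adjustment, p was under 0.05 for 6 of the 10, all higher, where 8.02% of all genes were higher and 6.24% lower. With the tumor as a replicate block 3 of the 10 were called higher and 0 lower, where 0.863% and 1.09% of all genes were called. With the tumor as a random block Uhrf1 and Chaf1b were called, 2 of the 10, where 2.16% of all genes were called higher and 3.04% lower. Higher in all 4 tumors were 7 of the 10 genes, and 1 was lower in all 4, where 23.2% and 11.8% of all genes were. For 0 of the 10 did the TIC arrays lie all above or all below the CD24- arrays, which was so for 5.19% and 4.68% of all genes. The median difference of the 10 genes was 0.40, against 0.04 over all genes.

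**Figure D1:**
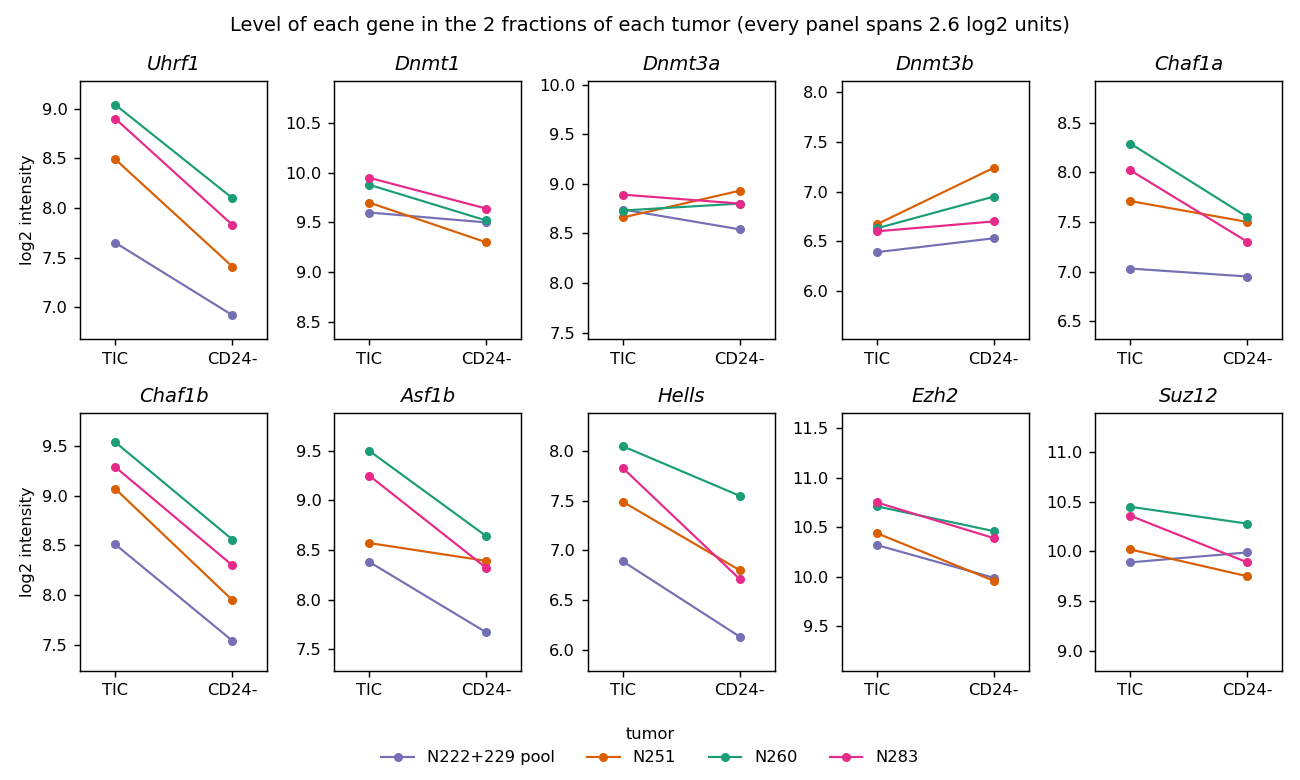
Log2 intensity (y axis) of each of the 10 genes in the TIC and CD24- fractions (x axis), with a line joining the arrays of 1 tumor or pool. The Chaf1b lines run nearly parallel, each dropping by 0.97 to 1.12 towards the CD24- fraction, while the Dnmt3a lines cross.

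Uhrf1, the reader of hemimethylated DNA, was at 8.49 (N251), 9.04 (N260), 8.90 (N283) and 7.65 (pool, the mix of N222 and N229) in the TIC arrays. In the CD24- arrays of the same tumors it was at 7.41, 8.10, 7.83 and 6.92. The TIC array was the higher one in every tumor, yet the groups overlapped, because the TIC array of the pool was below the CD24- arrays of N260 and N283. The tumors kept 1 order in both fractions, N260 highest, then N283, N251 and the pool. The difference was 0.95, a 1.94-fold higher level, with an SE of 0.34 without the block (adjusted p = 0.258) and 0.09 with it (adjusted p = 0.0189). The SD between tumors was 0.63 among TIC and 0.52 among CD24- arrays, whereas the SD of the 4 differences was 0.16.

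Dnmt1, the maintenance methyltransferase that Uhrf1 recruits, was at 9.70 (N251), 9.88 (N260), 9.95 (N283) and 9.60 (pool) in the TIC arrays, against 9.30, 9.52, 9.64 and 9.50 in the CD24- arrays. It was higher in all 4 tumors, by 0.10 in the pool and by 0.31 to 0.40 in the others. The groups overlapped at 1 point, since the pool's TIC array was just below the CD24- array of N283. The mean difference of 0.29 ± 0.11 (SE) was not called (adjusted p = 0.299; blocked, 0.134).

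The enzymes that methylate new sites had no positive mean difference. Dnmt3a was at 8.66 (N251), 8.73 (N260), 8.89 (N283) and 8.74 (pool) in the TIC arrays, against 8.93, 8.80, 8.80 and 8.54 in the CD24- arrays. Its differences had mixed signs, 2 above and 2 below 0, and the groups overlapped. Their mean was -0.01 (95% interval -0.25 to 0.23, adjusted p = 0.989). Dnmt3b was at 6.67 (N251), 6.63 (N260), 6.60 (N283) and 6.39 (pool) in the TIC arrays, against 7.24, 6.95, 6.70 and 6.53 in the CD24- arrays. It was lower in the TIC array of every tumor, most in N251 (-0.58) and N260 (-0.32) and least in the pool (-0.14) and N283 (-0.10), and the groups overlapped. The mean of -0.28 ± 0.16 (SE) was not called (adjusted p = 0.454; blocked, 0.195). Its tumors stood in 1 order in both fractions, N251 highest, then N260, N283 and the pool. The macrophage, pan-leukocyte and T and NK cell lists described below had that order in the CD24- arrays. In the TIC arrays the macrophage list was highest in the pool (6.55, against 6.44 in N251). There the pan-leukocyte list (7.24) and the T and NK cell list (6.12) were highest in N251, but neither had the whole order. The neutrophil list had it, at 6.11 (N251), 5.97 (N260), 5.90 (N283) and 5.79 (pool), near the arrays' lower quartiles. The B cell, endothelial, fibroblast, luminal epithelial and myoepithelial lists were also highest in N251 in the TIC arrays.

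Of the histone chaperones among the 10 genes, Chaf1b, a subunit of the chromatin assembly factor, had the smallest SD of its 4 differences (0.07). It was at 9.07 (N251), 9.54 (N260), 9.29 (N283) and 8.51 (pool) in the TIC arrays, against 7.95, 8.56, 8.30 and 7.54 in the CD24- arrays. The 4 differences were 1.12, 0.98, 0.98 and 0.97, and the groups overlapped because the pool's TIC array was below the CD24- array of N260. The mean of 1.01 (2.02-fold) had an SE of 0.26 without the block (adjusted p = 0.140) and 0.07 with it (adjusted p = 0.0189). Its partner Chaf1a was at 7.71 (N251), 8.29 (N260), 8.02 (N283) and 7.03 (pool) in the TIC arrays, against 7.50, 7.55, 7.30 and 6.95 in the CD24- arrays. The difference was 0.74 in N260 and 0.72 in N283, but 0.21 in N251 and 0.09 in the pool, whose TIC array was below the CD24- arrays of the other tumors. Its mean of 0.44 ± 0.26 (SE) was not called (adjusted p = 0.483; blocked, 0.159).

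Asf1b, the histone H3 and H4 chaperone tied to dividing cells, was at 8.57 (N251), 9.50 (N260), 9.25 (N283) and 8.38 (pool) in the TIC arrays. The CD24- arrays had 8.39, 8.64, 8.32 and 7.67. The difference was 0.71 to 0.92 in 3 pairs and 0.19 in N251. The groups overlapped, the TIC arrays of N251 and the pool lying below the CD24- array of N260. Its mean of 0.67 ± 0.28 (SE; 1.59-fold) was not called (adjusted p = 0.335; blocked, 0.0795). Without tumor N251 it was 0.83 and was called with the block (adjusted p = 0.0129).

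Hells was at 7.49 (N251), 8.05 (N260), 7.83 (N283) and 6.89 (pool) in the TIC arrays, against 6.80, 7.55, 6.71 and 6.13 in the CD24- arrays. It was higher in every tumor, from 0.50 in N260 to 1.12 in N283. The groups overlapped, since the CD24- array of N260 was above the TIC arrays of N251 and the pool. The mean of 0.77 (1.70-fold) had an SE of 0.32 without the block (adjusted p = 0.332) and 0.12 with it (adjusted p = 0.0434). With the tumor as a random block Hells was not called (adjusted p = 0.0728).

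Both Polycomb genes had small mean differences. Ezh2, the methyltransferase of the complex, was at 10.44 (N251), 10.71 (N260), 10.75 (N283) and 10.32 (pool) in the TIC arrays, against 9.96, 10.46, 10.39 and 9.99 in the CD24- arrays. It was higher in all 4 tumors, by 0.25 to 0.48, though the CD24- array of N260 was above the TIC arrays of N251 and the pool. Its mean of 0.36 ± 0.15 (SE; 1.28-fold) was not called (adjusted p = 0.343; blocked, 0.0803). Suz12 was at 10.02 (N251), 10.45 (N260), 10.36 (N283) and 9.89 (pool) in the TIC arrays, against 9.75, 10.28, 9.89 and 9.99 in the CD24- arrays. It was higher in 3 pairs and lower by 0.11 in the pool, and the groups overlapped. The mean of 0.20 was not called either, and its 95% interval with the block ran from -0.07 to 0.47 (adjusted p = 0.627; blocked, 0.331).

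**Figure D2:**
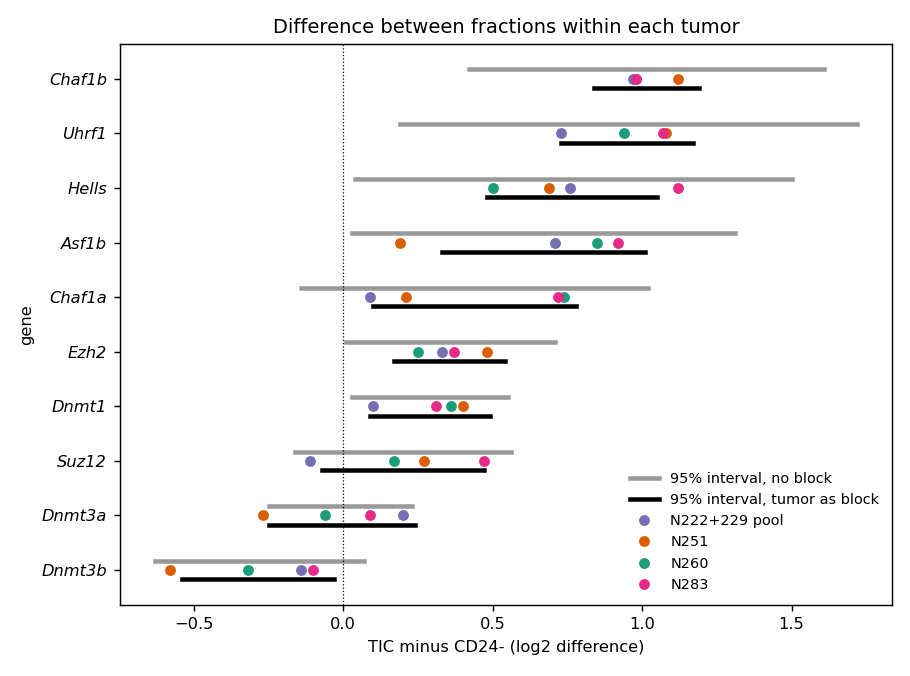
TIC minus CD24- log2 difference (x axis) of each gene (y axis), with 1 point per tumor or pool and limma's 95% intervals of the mean without the block (grey) and with the tumor as a block (black). The interval of Uhrf1 ran from 0.19 to 1.72 without the block and from 0.73 to 1.17 with it, while those of Dnmt3a, -0.25 to 0.23 and -0.25 to 0.24, were nearly alike.

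The calls of the blocked fit depended on tumors N260 and N283, and that of Hells also on the pool. Leaving out both arrays of N260, or both of N283, left 0 of the 10 genes and 0 of all genes called with the block. Uhrf1 then differed by 0.96 without N260 and 0.92 without N283 (adjusted p = 0.186 and 0.146), and Chaf1b by 1.02 in both cases (adjusted p = 0.184 and 0.146). Hells differed by 0.86 and 0.65 (adjusted p = 0.203 and 0.159), and by 0.77 without the pool (adjusted p = 0.0918). Without N251, 4 of the 10 were called with the block, namely Uhrf1 (0.91), Chaf1b (0.98), Asf1b (0.83) and Hells (0.79).

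The order of the 4 tumors was the same in both fractions for 3 of the 10 genes, Uhrf1, Dnmt3b and Chaf1b. For 6 of the 10 genes (Uhrf1, Dnmt3b, Chaf1a, Chaf1b, Asf1b and Hells) the pool was lowest in both fractions. N260 was highest for 6 genes in the TIC fraction and for 7 in the CD24- fraction. The mean level of the 10 genes was 9.08 (N260), 8.98 (N283), 8.68 (N251) and 8.34 (pool) in the TIC arrays and 8.64, 8.39, 8.32 and 7.98 in the CD24- arrays. A TIC array of 1 tumor therefore could lie below a CD24- array of another.

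Each gene was set against a partner or paralog by subtracting the partner's TIC minus CD24- difference from its own in each tumor, in 8 pairs picked for their known relation after values had been seen. With 4 tumors the exact two-sided sign-flip permutation test cannot give a p below 0.125, so no pair could pass. Uhrf1 differed by 0.85 ± 0.25 (SD, 4 tumors) more than its paralog Uhrf2 and by 0.66 ± 0.07 more than Dnmt1. Both excesses were positive in 4 of 4 tumors (exact permutation p = 0.125, 0.2 after Benjamini-Hochberg adjustment over the 8 pairs). In these differences Chaf1b exceeded Chaf1a in 4 of 4 tumors, by 0.91 in N251 and 0.88 in the pool but by 0.25 in N260 and 0.26 in N283. Ezh2 exceeded Ezh1, its counterpart in Polycomb repressive complex 2, by 0.35 ± 0.11 in 4 of 4 tumors. Dnmt3a exceeded Dnmt3b by 0.27 ± 0.07 in 4 of 4. These 3 pairs also had an exact permutation p of 0.125 and an adjusted p of 0.2. Asf1b exceeded Asf1a in 3 of 4 tumors (mean 0.30), Hells exceeded Cdca7, the protein it works with, in 3 of 4 (mean 0.45), and Ezh2 exceeded Suz12 in 3 of 4 (mean 0.16). Their exact permutation p-values were 0.25, 0.25 and 0.375, with adjusted p-values of 0.286, 0.286 and 0.375.

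**Figure D3:**
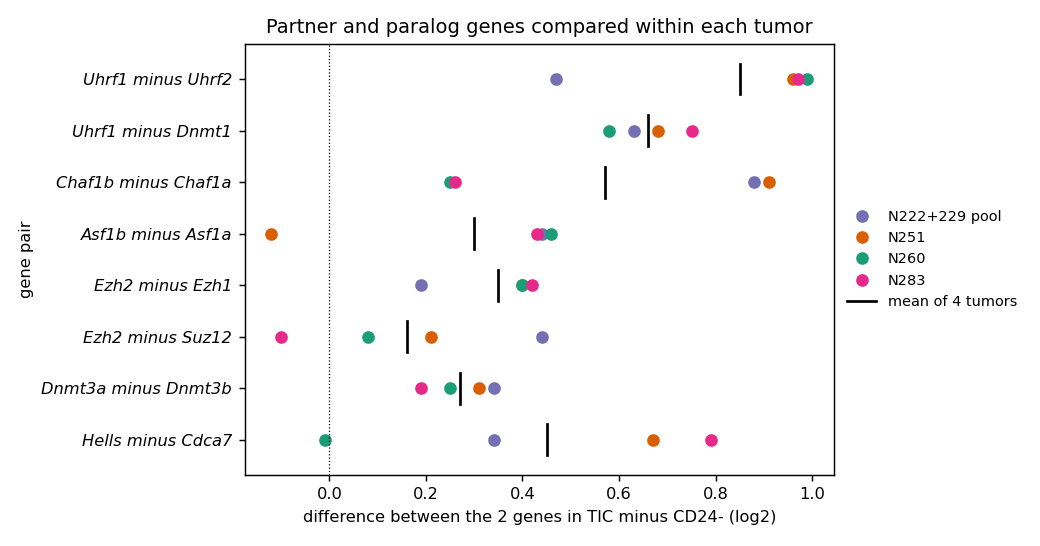
Difference between the genes of each pair (y axis) in their TIC minus CD24- log2 difference (x axis), with 1 point per tumor or pool and a bar at the mean. Uhrf1 minus Dnmt1 was 0.58 to 0.75 in the 4 tumors, and Asf1b minus Asf1a was -0.12 in N251 and 0.43 to 0.46 in the others.

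Promoter sequence is shown for Uhrf1, Chaf1b and Hells, the genes called with the block, and for Dnmt3b, the gene lower in the TIC array of all 4 tumors. Each is the 250 bases before a RefSeq transcript start (GRCm38.p6), 5′ to 3′ on the gene's strand, with capitals marking matches on either strand to 3 kinds of letters. These were E2F-type letters (TTTGGCGC, TTTCCCGC, TTTGGCGG, TTTCCCGG, TTTCGCGC and TTTGCCGC, counted together), the cell cycle homology region (TTTGAA or TTCGAA) and CCAAT.
Uhrf1, the second of its 2 windows, chr17:56304063-56304312, plus strand: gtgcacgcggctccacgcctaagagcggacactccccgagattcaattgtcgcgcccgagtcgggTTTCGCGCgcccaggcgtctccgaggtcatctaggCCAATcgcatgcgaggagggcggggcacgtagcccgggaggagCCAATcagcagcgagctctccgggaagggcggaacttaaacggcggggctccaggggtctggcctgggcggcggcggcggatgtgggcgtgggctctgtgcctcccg
Chaf1b, chr16:93883651-93883900, plus strand: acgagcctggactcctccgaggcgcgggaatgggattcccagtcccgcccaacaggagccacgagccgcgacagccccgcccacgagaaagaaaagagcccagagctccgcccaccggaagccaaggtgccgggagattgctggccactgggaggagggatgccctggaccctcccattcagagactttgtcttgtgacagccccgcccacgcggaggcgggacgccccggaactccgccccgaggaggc
Hells, chr19:38930740-38930989, plus strand: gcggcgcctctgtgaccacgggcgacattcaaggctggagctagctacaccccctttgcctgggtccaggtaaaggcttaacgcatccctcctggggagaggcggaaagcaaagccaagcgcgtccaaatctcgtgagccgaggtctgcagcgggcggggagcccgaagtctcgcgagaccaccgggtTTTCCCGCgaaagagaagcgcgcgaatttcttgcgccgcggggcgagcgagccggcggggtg
Dnmt3b, chr2:153649199-153649448, plus strand: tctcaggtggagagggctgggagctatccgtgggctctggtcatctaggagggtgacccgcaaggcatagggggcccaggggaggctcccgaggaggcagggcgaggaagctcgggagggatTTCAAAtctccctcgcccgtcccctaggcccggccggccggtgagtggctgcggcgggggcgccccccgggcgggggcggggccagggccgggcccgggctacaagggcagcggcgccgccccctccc
Uhrf1 had E2F-type letters 185 to 178 bases before this start and CCAAT at 150 to 146 and 107 to 103. Of its 2 windows, the one shown was picked for having more matches. The other held CCAAT at 30 to 26 bases before its start and no E2F-type letters. Hells had E2F-type letters 62 to 55 bases before its start. Chaf1b, with the largest difference of the 10, held none of the 3 kinds, and Dnmt3b held TTCAAA, the other strand of TTTGAA, 128 to 123 bases before its start. All 10 genes matched the table, with 15 windows. E2F-type letters stood in a window of 5 genes (Uhrf1, Dnmt1, Chaf1a, Hells and Suz12), 5 of the 15 windows, against 3.2% of all 32851 windows. CCAAT stood in 8 of the 15 windows, of 6 genes, against 33.8% of all windows, and the cell cycle homology region in 4, against 17.1%. In 1 window of Dnmt1 a CCAAT and its reverse overlapped. A match is a run of letters and was not tested as a binding site.

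Related genes were taken from lists of the same pathways. Genes of the replication fork and of mitosis were mostly higher in the TIC fraction, and few genes of the other lists were called. Without the block, 1 gene of all the related lists was called, Apobec1, a cytidine deaminase gene (6.11 in the TIC fraction, 11.03 in the CD24- fraction, difference -4.91, adjusted p = 0.00303). With the block 34 were called. The background for the following counts is again 0.863% of all genes called higher and 1.09% lower with the block, or 2.16% and 3.04% where the block is random. The median of all genes is 0.04.

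Of 38 measured genes of S phase and the replication fork 10 rose with the block and 11 with the random block, 32 were higher in each tumor, and the median difference was 0.47. Rrm2, a subunit of the enzyme that makes deoxynucleotides, differed by 1.15 (adjusted p = 0.0189 with the block), Mcm6, of the replicative helicase, by 0.89 (0.0189, but 0.0559 with the random block) and Tyms, the thymidylate synthase, by 0.82 (0.0256). Of 27 genes of G2 and mitosis 20 rose with the block and 14 with the random block, and 27 were higher in all 4 tumors, with a median of 0.87. The mitotic kinesin gene Kif11 and the mitotic kinase gene Cdk1 both differed by 1.37 (blocked adjusted p = 0.0255 and 0.0189), and Prc1, which bundles spindle microtubules, by 1.24 (0.0189). Of 19 E2F and DREAM regulators 1 rose with the block, Foxm1, a transcription factor of mitotic genes (0.89, blocked adjusted p = 0.0257), and the median was 0.34. With the random block Foxm1 was not called (adjusted p = 0.0517) and 4 others of the list were, namely E2f3 (0.36), E2f6 (0.41), E2f7 (0.58) and Tfdp2 (0.48).

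Of 23 other histone chaperone genes 1 rose with the block and 4 with the random block. Called in both was Oip5, which helps load the centromeric histone (7.11 in the TIC fraction, 6.24 in the CD24- fraction, difference 0.87, blocked adjusted p = 0.0234). The list's median was 0.16. Asf1a differed by 0.36 (blocked adjusted p = 0.0803) and Hat1, which acetylates new histone H4, by 0.46 (0.0793). Both were called with the random block (adjusted p = 0.0430 and 0.0333), as was Mms22l (0.59, adjusted p = 0.0487). Of 16 genes of Hells partners and other remodellers 1 rose, Cdca7l, a paralog of the Hells partner Cdca7, by an even 0.48 to 0.59 in the 4 tumors (mean 0.54 ± 0.10 SE, adjusted p = 0.0515 unblocked and 0.0306 blocked). The list's median was -0.01.

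Of 25 other Polycomb genes 0 were called by limma without the block or with either block, and 2, both higher, had an unadjusted p under 0.05 without it, close to the 8.02% of all genes. Their median was 0.04, their differences ran from -0.30 to 0.34, and Phf19 had the smallest unblocked p (0.33, adjusted p = 0.288). Ezh1 differed by 0.00 and Eed, the third core subunit, by -0.07, whereas Rbbp4 and Rbbp7, histone-binding subunits shared with the chromatin assembly factor, differed by 0.21 and 0.28. Of 13 genes of H3K9 and H4K20 methylation and HP1 proteins 0 were called in any of the 3 fits, and 4, all higher, had an unadjusted p under 0.05. Their median was 0.16, and Suv39h2, which methylates histone H3, had the smallest unblocked p (0.26, adjusted p = 0.301). With the block the smallest p was that of Cbx3, an HP1 protein gene (0.40, adjusted p = 0.0603). Of 16 other DNA methylation genes Apobec1 alone was called and the median was 0.08. Tet1, which oxidises methylated cytosine, differed by 0.67, but by 1.38 in N251 and 0.18 in N283 (blocked adjusted p = 0.151).

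**Figure D4:**
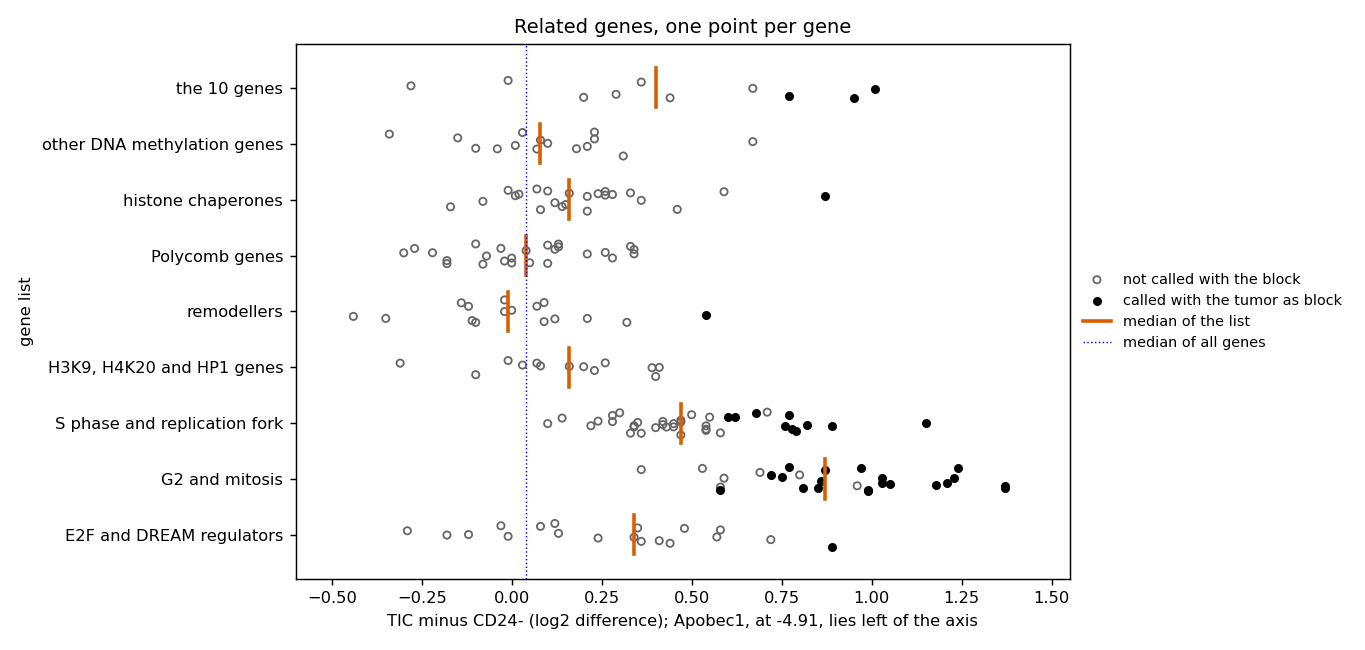
TIC minus CD24- log2 difference (x axis) of each measured gene in the 10 genes and in 8 related lists (y axis), filled where called with the tumor as a block, with a bar at each list's median. Filled points are most frequent among G2 and mitosis genes, 20 of 27, and Apobec1 lies outside the axis at -4.91.

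For each gene the 3 genes with the most like levels over the 8 arrays were found. Likeness is Pearson's r over arrays that share tumors and fractions, given as a description. The mean of the 10 genes was closest to Pole, the leading-strand polymerase (r = 0.998), Plk1, a mitotic kinase (0.994), and Pclaf, a partner of the replication clamp (0.994). Uhrf1 was closest to Rad54l, of homologous recombination (0.992), Ckap2 (0.991) and Gar1 (0.990). Chaf1b was closest to Parpbp (0.995), Rad54b (0.991) and the centromere gene Cenpm (0.991). Chaf1a was closest to Chtf18, of a clamp loader (0.995), H2ax (0.984) and Ska1 (0.978). Ska1 was dim, at 5.69 in the TIC and 5.34 in the CD24- fraction. Asf1b was closest to the cyclin F gene Ccnf (0.994), Cks2 (0.992) and Hnrnpll (0.991), and Hells to Pole, Nusap1 and Anln (0.986 each). Dnmt1 was closest to Pold2, of a replicative polymerase (0.994), Psmc5 (0.989) and Med21 (0.987), and Ezh2 to Phax (0.991), Acsl5 (0.990) and Oip5 (0.987).

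Dnmt3b was closest to Klrc2, a receptor gene of natural killer cells (0.993), Ppp2r5a (0.991) and Arhgap27 (0.991). Klrc2 was dim, with means of 5.37 in the TIC and 5.77 in the CD24- fraction, under the arrays' lower quartiles. Dnmt3a was closest to Eipr1 (0.975), Serpinb6d (0.974), which was dim at 3.55 in the TIC and 3.53 in the CD24- fraction, and Ikbke (0.944). Suz12 was closest to Eif3a (0.970), Slc25a32 (0.960) and Exoc8 (0.955). Among the members themselves r was highest for Uhrf1 and Chaf1b (0.98) and lowest for Dnmt1 and Dnmt3b (-0.57). Against the mean of the S phase list r was 0.99 for Uhrf1 and for Chaf1b, 0.28 for Dnmt3a and -0.17 for Dnmt3b. The G2 and mitosis list gave nearly the same, 0.98 for Uhrf1, 0.97 for Chaf1b, 0.38 for Dnmt3a and -0.08 for Dnmt3b. Against the mean of the pan-leukocyte list r was -0.56 for Uhrf1, -0.67 for Chaf1b, 0.33 for Dnmt3a and 0.83 for Dnmt3b, and lowest for Dnmt1 (-0.82). Against the luminal epithelial list it was highest for Dnmt1 (0.81) and lowest for Dnmt3b (-0.84).

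Markers of other cells differed between the fractions alongside these genes. Of 20 measured macrophage markers 16 fell in the TIC fraction without the block, and the mean level of the list was 6.22 to 6.55 in the TIC arrays and 9.32 to 11.66 in the CD24- arrays. Of 15 pan-leukocyte markers 7 fell, with list means of 7.01 to 7.24 in TIC and 8.84 to 11.33 in CD24- arrays. Of 16 T and NK cell markers 3 fell, with means of 5.88 to 6.12 in TIC and 6.94 to 9.39 in CD24- arrays. In the CD24- arrays all 3 lists were highest in N251, then N260, N283 and the pool. Ptprc, the CD45 antigen, was at 5.64 to 6.23 in the TIC arrays, around the arrays' lower quartiles, and at 8.61 to 11.74 in the CD24- arrays. Of the 8 B cell, 11 neutrophil, 10 endothelial and 12 fibroblast markers 0 were called without the block (3, 5, 2 and 5, all lower, at an unadjusted p under 0.05), with medians of -0.43, -0.37, -0.09 and -0.27. Of 16 luminal epithelial markers 0 were called without the block (4, all higher, at an unadjusted p under 0.05, median 0.39). Over all genes 8.02% were higher at that unadjusted p. Their mean level was 9.90 to 10.03 in the TIC arrays and 9.09 to 9.93 in the CD24- arrays, lowest in N251. Of 10 myoepithelial markers 0 were called without the block (2, both higher, at an unadjusted p under 0.05, median 0.03). With the fixed and the random block, 16 and 18 macrophage, 9 and 12 pan-leukocyte, and 4 and 11 T and NK cell markers fell. So did 1 and 1 B cell, 1 and 1 neutrophil, 0 and 1 endothelial, and 1 and 4 fibroblast markers. Called higher were 0 luminal epithelial markers and 1 myoepithelial marker in each fit. Over all genes 1.09% and 3.04% were called lower, and 0.863% and 2.16% higher. The part of these cells in the differences of the 10 genes was not tested.

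**Figure D5:**
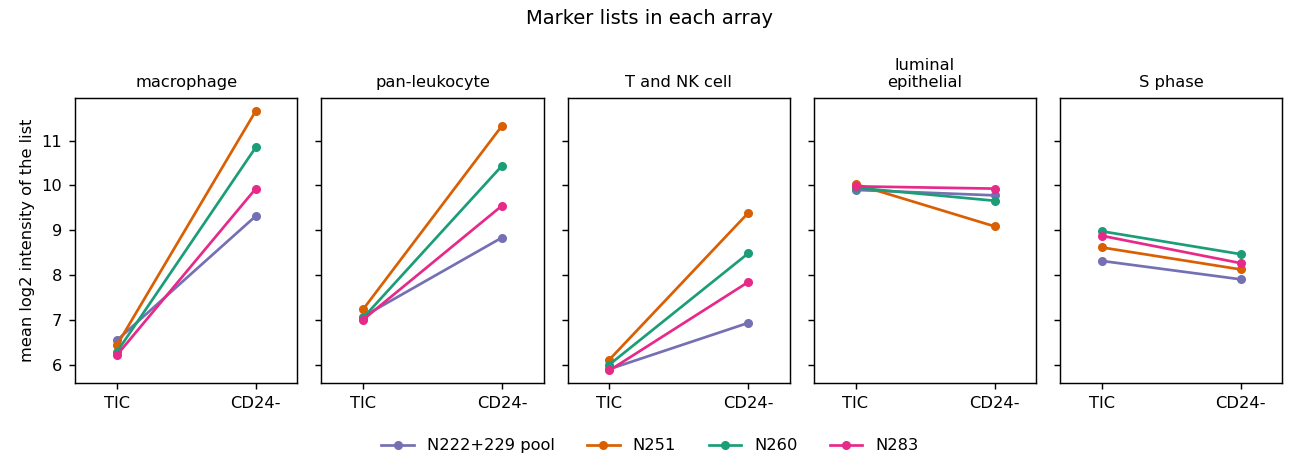
Mean log2 intensity (y axis) of 4 cell type marker lists and the S phase list in the TIC and CD24- fractions (x axis), with a line joining the arrays of 1 tumor or pool. The macrophage list was at 6.22 to 6.55 in the TIC arrays and 9.32 to 11.66 in the CD24- arrays, highest in N251.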

How the data were processed

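The deposited values are log2 intensities that the authors made with RMA and Partek, per the submitters' processing notes. Versions, settings, build and whether arrays were normalised together were not stated. Of 35556 rows, 21789 had exactly 1 symbol in the platform annotation. Symbols were checked through the gene identifier against RefSeq (GRCm38.p6), with 21698 rows matched and 0 symbols changed. Each gene was taken from its brightest row by the mean of all 8 arrays.

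The members and lists were chosen with earlier results of these data known. Named genes were the 10 members, in each related list the 3 called genes with the largest difference (or the gene with the smallest p), and the 3 genes most correlated with each member. Asf1a, Hat1, Ezh1, Eed, Rbbp4, Rbbp7, Tet1, Mms22l, Cbx3, E2f3, E2f6, E2f7, Tfdp2, Cd24a, Ptprc and the partner pairs were chosen after their values were seen. Differences were fitted over all 19938 genes with limma 3.58.1 in R 4.3.3 (lmFit, eBayes, Benjamini-Hochberg), without a block or filter, and again with the tumor as a block, fixed or random. On simulated data with genes drawn independently, the only check was that the largest added changes were recovered in size on average. False calls were not part of that check. Fractions of 1 tumor or pool come from the same animals per the labels. Their deviations from the group means correlated across genes by 0.322 (N251), 0.435 (N260), 0.3 (N283) and 0.557 (pool), against -0.337 to 0.158 between tumors. Array signal has no depth, and the number of arrays limits precision.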

Additional observations from a re-analysis of the deposited data

Results flagged for a closer look

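Of 30 groups of 4 values of the 10 genes (levels in each fraction, and differences by tumor), 1 held a value far from the other 3. Chance gives about 1 in 20, or 1.5 of these groups, more than the 1 found. The Chaf1b difference was 1.12 in N251 and 0.97 to 0.98 in the other 3.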

How the results depend on the processing

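Of 316 differences of the 10 genes under 35 alternatives, 285 kept their direction and side of the threshold, 22 became called and 9, all of Dnmt3a, changed sign. Dnmt3a (-0.01) was 0.01 with array weights, 0.02 with each array centred on its median (also with the replicate block), 0.08 and 0.01 with the block and without N251 or N260, and -0.08 to 0.08 leaving out an array or tumor. Hells and Dnmt3b were under the median level and have no value with that filter. Fits that combine the replicate block with another choice were added after seeing the data, except those leaving out a tumor. The cause of the changes was not tested. Counts follow as members higher, related genes called, and all genes higher and lower, against 0, 1, 10 and 148. With the replicate block they were 3, 34, 172 and 218; with the block random 2, 35, 430 and 606; under array weights 1, 12, 191 and 778. Adding the intensity trend to the block gave 3, 35, 178 and 233, median centring 3, 41, 237 and 239, cyclic loess 2, 22, 84 and 120, and the median filter 2, 22, 63 and 88. With the block and without the pool they were 2, 25, 74 and 299, without N251 4, 47, 360 and 480, and 0, 0, 0 and 0 without N260, without N283, and at an adjusted p under 0.01. Without the block, members stayed at 0 in the other settings. There, median centring gave 2 related genes and 26 higher genes, the quartile filter 3 and 18, the median filter 5 higher genes, cyclic loess 3, all rows 2, 2-fold 2, and an adjusted p under 0.01 gave 0 higher and 58 lower. Leaving out an array or tumor gave 0 to 3 related genes, 0 to 46 higher genes (46 without CD24- N283) and 8 to 583 lower genes (8 without N260, 583 without the CD24- pool array). Member counts lower were 0 throughout. The lowest member value, 6.13 (Hells, CD24- pool), was near the arrays' lower quartiles, and background signal was not measured.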
